A study of Arabidopsis thaliana with 4 samples.

Results

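ABC transporters are membrane proteins that use ATP to move substrates, and in plants they carry auxin, other hormones, surface lipids, lignin precursors and conjugated compounds. Plant ABC genes are sorted by sequence into subfamilies. Subfamily B holds the P-glycoproteins, several of which move auxin out of cells together with the PIN efflux carriers. Subfamily C, also called MRP, is best known for moving glutathione conjugates and other organic anions into the vacuole. Subfamily G holds half-size transporters, which work in pairs, and full-size transporters of the pleiotropic drug resistance (PDR) type.

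The genes described here are those whose probe set carried a single gene symbol made of ABC, a subfamily letter from A to I and a number. *ABCG14* was set aside. This gave 7 genes, each read by 1 probe set, among 22746 probe sets that are not controls. They are *ABCB1* in subfamily B, *ABCC8*, *ABCC12* and *ABCC13* in subfamily C, and *ABCG19*, *ABCG29* and *ABCG35* in subfamily G. No gene of the other subfamilies had a named probe set. RNA came from whole light-grown seedlings of the Columbia wild type (Col-0), 5 days old. The IAA group lay for 2 h in water that held 10 µM of the natural auxin indole-3-acetic acid (IAA), and the mock group lay for 2 h in plain water. Each group had 2 arrays, described in the study as independent biological replicates.

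How the genes received their names bears on every count below. RefSeq lists 123 Arabidopsis loci with such a symbol besides *ABCG14*, and 116 of them had no probe set that could be named here. The array's annotation table named 0 of the 7 genes. *ABCB1*, *ABCC12* and *ABCG19* took their names from study lists of transcripts lowered by brassinosteroid (BR), a set made on other arrays. *ABCC8*, *ABCC13*, *ABCG29* and *ABCG35* were named only through its lists of auxin-regulated transcripts, which were chosen on these same 4 arrays. A large change after IAA was therefore a condition for these 4 genes to be named, and their values are given as a description without a test. The lists held increased and decreased transcripts alike, so either direction was possible.

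All 4 genes named through the auxin lists were lower after IAA, and none of the 3 genes named through the BR lists was called. Following the study's methods, a probe set was called where limma gave an adjusted p below 0.10 together with a positive log odds of change (B). By that rule 85 of all probe sets were decreased (0.374%) and 337 were increased (1.48%). Because of the way they were named, nothing is read from the 4 decreased genes against that background. The 3 other genes gave limma 0 calls, also 0 at an unadjusted p below 0.05. Over all 22746 probe sets, 2298 were higher and 2410 lower at that unadjusted p, so nothing is read from 0 of 3. The median log2 change over the 7 genes was -0.64, beside -0.02 over all probe sets. It was -0.82 over the 4 genes named through the auxin lists and 0.10 over the 3 others.

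*ABCG35* is a full-size transporter of the PDR type and a close relative of *PEN3* (ABCG36), an exporter that acts in defense against pathogens. Its expression value (an RMA value on a linear scale) was 117 and 95.1 in the IAA arrays, against 225 and 252 in the mock arrays. Both IAA arrays lay well below both mock arrays, and the closest pair differed 1.92-fold. The means were 106 ± 15.3 after IAA and 238 ± 19.2 in mock (SD, n = 2 each), a log2 change of -1.17 ± 0.13 (SE), so that IAA seedlings held 44.3% of the mock level. It ranked 9 among the 85 decreased probe sets when these are ordered from the largest fall.

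*ABCG29*, the other PDR transporter, exports p-coumaryl alcohol, a building block of lignin. It read 68.4 and 71.1 in the IAA arrays, against 124 and 128 in the mock arrays. The replicates were close, with 1.04-fold between the IAA arrays and 1.03-fold between the mock arrays, and the groups were far apart. The log2 change was -0.86 ± 0.09 (SE), leaving 55.1% of the mock level, and the gene ranked 38 of 85.

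The decreased genes of subfamily C were *ABCC13* and *ABCC8*, both MRP-type transporters. *ABCC13* read 47.6 and 52.9 in the IAA arrays, against 87.8 and 84.1 in the mock arrays. Its log2 change was -0.78 ± 0.10 (SE), or 58.4% of the mock level, at rank 47 of 85. *ABCC8* read 84.0 and 78.4 in the IAA arrays, against 128 and 125 in the mock arrays. Its change was the smallest of these 4 genes, at -0.64 ± 0.09 (SE), or 64.2% of the mock level and rank 79 of 85. In neither gene did the groups overlap, and the closest IAA and mock arrays differed 1.59-fold in *ABCC13* and 1.49-fold in *ABCC8*. The change of *ABCG35* was the farthest from 0, followed by those of *ABCG29*, *ABCC13* and *ABCC8*. Differences in change between these genes were not tested.

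**Figure D1:**
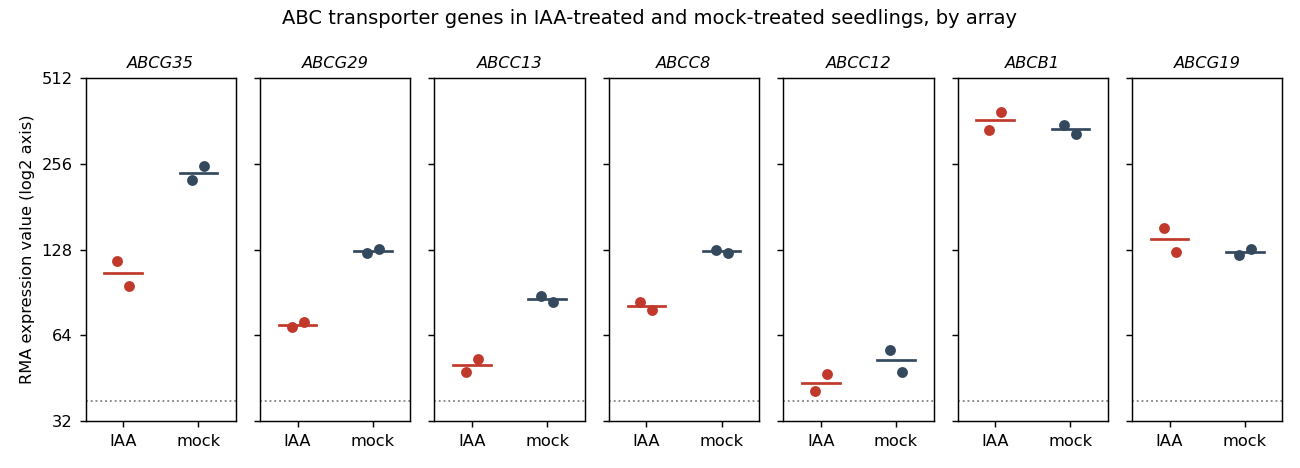
RMA expression value (log2 axis) of each ABC gene in the 2 IAA arrays (left of each panel) and the 2 mock arrays (right); points are arrays, bars group means, and the dotted line is 37.6, the highest value of the *Bacillus* control probe sets. *ABCG35*, *ABCG29*, *ABCC13* and *ABCC8* lay clearly lower in both IAA arrays, *ABCC12* had groups that nearly touch, and *ABCB1* and *ABCG19* had overlapping groups.

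*ABCB1*, a P-glycoprotein that exports auxin from cells, was the ABC gene most directly tied to auxin transport. It was also the only 1 of 12 genes on a list of ABC auxin and auxin-precursor transporters with a named probe set. It read 338 and 390 in the IAA arrays, against 353 and 328 in the mock arrays. The groups overlapped, since 1 IAA array lay above both mock arrays and the other between them. The log2 change was 0.10 ± 0.11 (SE, limma adjusted p = 0.659). Its 95% interval ran from -0.18 to 0.37, which corresponds to 0.886 to 1.29 times the mock level.

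*ABCG19* is a half-size transporter known for giving plants resistance to kanamycin when overproduced. It read 152 and 126 in the IAA arrays, against 123 and 129 in the mock arrays. One IAA array stood above the other 3 arrays, which lay close together. The log2 change was 0.14 ± 0.12 (SE, limma adjusted p = 0.554), with a 95% interval from -0.16 to 0.43. Without IAA replicate 1 the change was 0.00.

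*ABCC12*, the third MRP-type gene, was the dimmest of the 7. It read 40.7 and 46.6 in the IAA arrays, against 57.0 and 47.4 in the mock arrays. The groups did not overlap, but the nearest IAA and mock arrays differed only 1.02-fold. The log2 change was -0.26 ± 0.13 (SE, limma adjusted p = 0.327), with a 95% interval from -0.58 to 0.07. Its probe set has the suffix by which the array marks sequence common to several transcripts, and *ABCC1* and *ABCC11* are its immediate neighbors in the RefSeq gene order, so the value may include related transcripts. Groups that did not overlap were thus seen in 1 of the 3 genes named through the BR lists, against 53.5% of all probe sets in either direction and 29.0% with the IAA arrays lower. They were also seen in all 4 genes named through the auxin lists, where the naming required a change, so nothing is read from those 4.

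**Figure D2:**
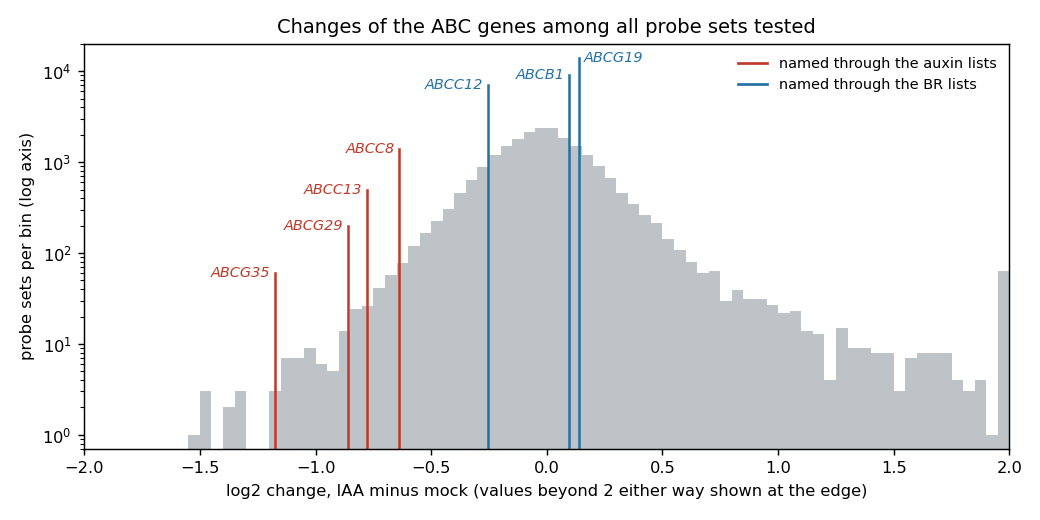
Number of probe sets (log axis) by log2 change, IAA minus mock, for all 22746 probe sets tested, with vertical lines at the 7 ABC genes (line height has no meaning); genes named through the auxin lists are red and those named through the BR lists blue. The 4 red genes lie between -1.17 and -0.64 in the lower tail, and the 3 blue genes between -0.26 and 0.14.

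The search for increased ABC genes covered nearly all calls. Of the 337 increased probe sets 334 carried a single gene name, and 0 of these names was an ABC symbol, with *ABCG14* counted in. Of the 85 decreased probe sets 84 carried a single name, and 5 were ABC genes, namely the 4 above and *ABCG14*. Only 4 called probe sets had no single name, 3 of them increased and 1 decreased. Of these 4, the annotation assigns 3 to several genes, and the remaining 1, an increased probe set, has no gene. The annotation lists 0 ABC loci for the 3. It also lists 0 for any other probe set, so it could not have shown one here. The 116 ABC loci without a named probe set could therefore account for at most 4 further called probe sets, 3 increased and 1 decreased, as far as the single names are right. Within the 150 probe sets named only through the auxin lists, 110 were increased, with 0 ABC genes, and 40 were decreased, of which 4 were the ABC genes described here. The locus *PEN3* and the other 2 loci that RefSeq lists under another symbol with an ABC synonym, *PGP10* and *NAP7*, had no named probe set.

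By subfamily, 2 of the 3 genes of C and 2 of the 3 of G were decreased, and the 1 gene of B was not called. Log2 changes ran from -0.78 to -0.26 in C, with a median of -0.64, and from -1.17 to 0.14 in G, with a median of -0.86. Both full-size PDR genes were decreased, and the half-size *ABCG19* was not called. These are counts over few genes whose naming depended on their change, and they give no share for a subfamily. Lists of ABC genes for the transport of abscisic acid, surface lipids and vacuolar conjugates, for transport in organelles, and of ABC proteins without membrane domain had 0 named members.

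The 3 genes named through the BR lists were set beside the other transcripts named in the same way. Of 184 probe sets named from a list of BR-lowered transcripts, 15 were increased and 2 decreased after IAA and 167 were not called, with a median log2 change of 0.02. *ABCB1*, *ABCG19* and *ABCC12* belonged to that uncalled majority.

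Other genes of auxin movement were measured in the same arrays. Of 15 listed genes (the PIN carriers, *AUX1* and the *LAX* importers, the ABCB partner *TWD1* and the kinases *PID* and *D6PK*), 4 had a named probe set, all through the BR lists. *PIN3* and *PIN7* rose. *PIN4* stood at 0.79 ± 0.12 on the log2 scale (SE, limma adjusted p = 0.0348) with B below 0, and the importer gene *LAX3* at -0.09 ± 0.13 (SE, limma adjusted p = 0.747). The interval of *ABCB1*, with its upper end at 0.37, lay wholly below those of *PIN4* (0.50 to 1.08), *PIN7* (0.70 to 1.19) and *PIN3* (1.65 to 2.11). The difference between genes was not itself tested. The early auxin response genes *GH3.3*, *IAA1*, *IAA5* and *IAA19* were all called higher, with log2 changes from 3.22 to 7.21. *IAA1*, *IAA5* and *IAA19* were named only through the auxin lists, where the naming required a change. *GH3.3*, named by the array's annotation, rose by 7.21 and alone checks the treatment labels.

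**Figure D3:**
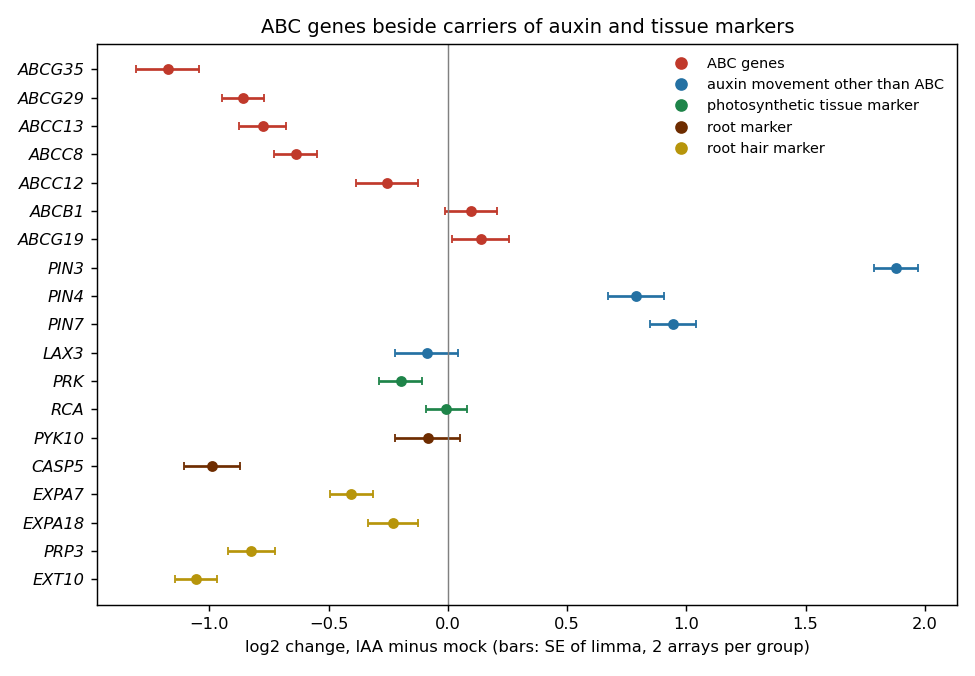
Log2 change, IAA minus mock, with the SE of limma (bars, 2 arrays per group) for the 7 ABC genes, 4 other genes of auxin movement and the tissue markers measured. *PIN3*, *PIN7* and *PIN4* lie to the right of 0 and *ABCB1* close to it. The decreased ABC genes lie to the left, as do *CASP5* and the root hair genes, of which *PRP3* and *EXT10* were named through the auxin lists. *PRK*, *LAX3*, *PYK10* and *RCA*, none of them called, are also on that side, between -0.20 and -0.01.

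Whole seedlings hold shoot and root tissue, and in bulk RNA fewer cells of a type cannot be told apart from less RNA per cell. The photosynthetic markers *PRK* and *RCA* (2 of 6 listed had a named probe set) were abundant and not called, with summed values of 14616 to 14967 in the IAA arrays and 15472 to 15681 in the mock arrays. The root markers *PYK10* and *CASP5* (2 of 3) summed to 2373 to 2766 in the IAA arrays and 2513 to 3048 in the mock arrays. Of these *CASP5*, a gene of the Casparian strip in the root endodermis, fell, with 58.4 and 48.3 in the IAA arrays against 106 and 105 in the mock arrays. All 4 root hair markers had a named probe set. *PRP3* and *EXT10* were decreased (log2 changes of -0.82 and -1.05, both named only through the auxin lists). *EXT10* was read by a probe set with sequence common to several transcripts. *EXPA7* (-0.40, limma adjusted p = 0.0922 with B below 0) and *EXPA18* (-0.23) were not called. The summed value of the 4 root hair markers was 645 to 664 in the IAA arrays and 1093 to 1165 in the mock arrays, with no marker at 0. Most of that sum came from *PRP3* and *EXT10* (mock means of 566 and 357), whose naming required a change, so nothing is read from its fall. *EXPA7* and *EXPA18*, named by the array's annotation, had means of 95.9 and 67.4 after IAA, against 127 and 78.9 in mock. The called falls were of a size like those of the decreased ABC genes. *PRP3* and *EXT10* were named through the same lists as those genes, so nothing is read from the likeness. The root marker *PYK10* had a log2 change of -0.09 and was not called. The part of the tissue markers in the result was not tested.

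The immediate neighbors of the ABC genes in the RefSeq gene order were compared with them. Of 14 neighbors 7 had a named probe set, and limma called 0 of them, while 2 had an unadjusted p below 0.05. Over all 22746 probe sets, 337 were called increased and 85 decreased. At an unadjusted p below 0.05, 2298 were higher and 2410 lower, so nothing is read from these counts. The log2 changes of the 7 measured neighbors ran from -0.46 (*TT5*, a flavonoid synthesis gene beside *ABCG19*) to 0.15 (AT3G55140, on the other side of *ABCG19*). Beside the decreased *ABCC13*, AT2G07741 stood at -0.42 ± 0.18 on the log2 scale (SE, limma adjusted p = 0.251), read by a probe set with sequence common to several transcripts. Beside *ABCB1*, AT2G36920 stood at -0.39. Beside *ABCG29*, AT3G16330 had a log2 change of -0.02 and AT3G16350 one of -0.25. Beside *ABCG35*, AT1G15200 had one of -0.07.

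The calls of the 4 decreased genes did not hold in every setting. Settings that alter only the variance, the block, the filter or the threshold leave the log2 change as it was, so they bear on the calls alone. *ABCG29* kept its call in 12 of 15 other settings, *ABCG35* in 11, *ABCC13* in 10 and *ABCC8* in 8. These 4 genes were named through their change on these same arrays, so the kept calls describe them and lend no support. Leaving out the rule on B could not lose a call. An adjusted p below 0.05 with B above 0 gave the same 337 increased and 85 decreased probe sets. Without mock replicate 1, and likewise without mock replicate 2, 0 of the 4 calls were kept, with log2 changes between -1.26 and -0.62. With 1 mock array left, the spread comes from the IAA arrays alone and the lone mock array is assumed to vary like them, and in the same way with 1 IAA array left. Without mock replicate 1 and without mock replicate 2 the decreased probe sets over the whole table numbered 21 and 20. Without IAA replicate 1, the calls of *ABCC13* and *ABCC8* were lost, and without IAA replicate 2 that of *ABCC8*.

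**Figure D4:**
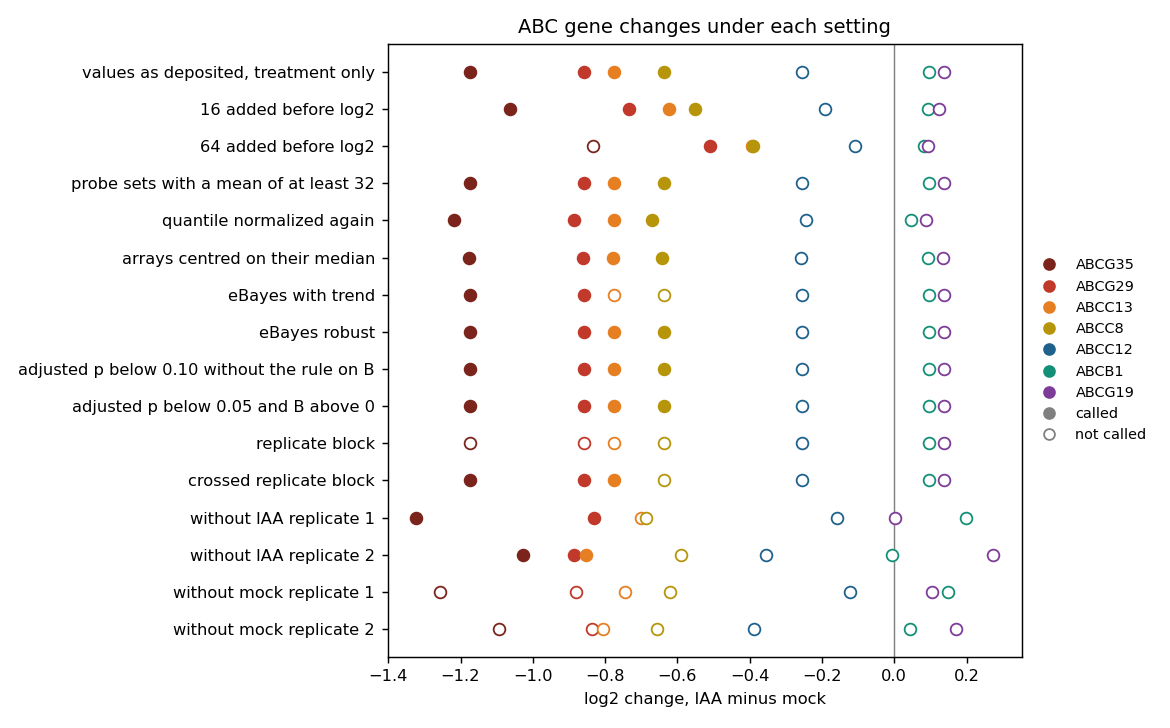
Log2 change, IAA minus mock, of the 7 ABC genes under the reported setting (top row) and 15 other settings; filled points were called by the rule of that setting and open points were not. Settings that alter only the test share the same log2 changes, and none of the 4 decreased genes is filled in the replicate block or when either mock array is left out.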

How the data were processed

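The authors processed the arrays with rma of the Bioconductor affy package (background correction, quantile normalization and summary of probes) and deposited 1 intensity value for each probe set and array, not log transformed; the package version and the arrays normalized together are not given in the sources used here. Quantile normalization hides a shift shared by most transcripts. Array medians lay between 62.2 and 63.5. Over all probe sets the 2 mock arrays had r = 0.997 on the log2 scale and the 2 IAA arrays 0.994. With 2 arrays per group their number limits the precision.

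Groups were taken from the sample descriptions. The log2 of each value, without a pseudocount, went into limma 3.58.1 (lmFit, then eBayes; R 4.3.3) with a single term for treatment. Benjamini-Hochberg adjustment covered 22746 probe sets, after 64 controls were set aside. Intervals rest on the moderated variance (5.66 degrees of freedom). Names came from the platform's annotation with RefSeq symbols of assembly TAIR10.1, else from loci in the study's supplementary lists. No expression values were taken from these lists, but a place on the auxin lists decided that 4 of the 7 genes were named. The direction of the BR lists was used to pick the 184 BR-lowered probe sets. After naming, 8245 probe sets stayed unnamed. Named genes were to be every called gene, the highest and lowest change of each subfamily and measured members of the transport lists, which took in all 7 genes. Genes and lists were chosen with earlier results of these data known. The fit was tested on simulated arrays. No genome, promoter or protein sequence was used here, so the motif and protein comparisons planned were not run, and no coordinates are given.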

Additional observations from a re-analysis of the deposited data

How the results depend on the processing

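The count of decreased ABC genes, 4 as reported, was 2 with limma's eBayes with trend, and lay between 0 and 3 when 1 array was left out (0 without either mock array, 2 without IAA replicate 1, 3 without IAA replicate 2). It was 0 without the genes named through the auxin lists, an alternative chosen after seeing the data. With the replicate number as a block it was 0, and the decreased probe sets over all genes numbered 10 in place of 85. Same-numbered arrays deviated in opposite directions (r = -0.19 across probe sets). With 2 arrays per group the crossed arrays necessarily give the mirror value (r = 0.19). Whether the numbers pair the arrays cannot be told from this correlation. The crossed pairing, added after seeing the data, gave 3 decreased ABC genes and 86 decreased probe sets in all. In the other settings run the count was 3 or 4, and 0 of the 7 genes were increased in any setting. Only these 7 genes were followed across settings, so an increase of an ABC locus without a named probe set would not have been seen. The median log2 change of the 7 genes, -0.64, was -0.55 with 16 and -0.39 with 64 added before the log2, and 0.10 without the genes named through the auxin lists. When 1 array was left out, *ABCB1* ranged from -0.0065 (without IAA replicate 2, opposite in sign to the reported 0.10) to 0.20. With each locus read by 1 probe set, a mean over probe sets changed nothing. The platform's annotation alone names none of the genes and gave no value. The cause of these differences was not tested.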
